A study of Homo sapiens with 4 samples.

Results

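Genes for the proteins of the cytosolic and the mitochondrial ribosome were examined by RNA sequencing in UMUC3 and SW780, 2 established lines of human bladder cancer. In each line cells with SCD1 knocked down through lentivirus (shSCD1, genotype label SCD1 knockdown) were set beside cells labelled shNT (genotype label WT). The 4 groups, UMUC3 shSCD1, UMUC3 shNT, SW780 shSCD1 and SW780 shNT, held 1 library each, and the labels name no culture number, hairpin sequence or clone. SCD1, with the gene symbol SCD, is stearoyl-CoA desaturase, the enzyme that puts a double bond into saturated fatty acyl chains. No test could be made within a line, so "higher" and "lower" describe these libraries alone. The members were taken by symbol: RPL or RPS with a number, RPSA, RPLP0 to RPLP2, and MRPL or MRPS with a number, at 1 CPM or more in a library. Pseudogenes, read-through names, kinases of the RPS6K family and genes named as like another were left out. This gave 155 genes of the 15415 that both tables hold. By symbol, 77 were counted to the cytosolic ribosome (46 in the large and 31 in the small subunit). The other 78 were counted to the mitochondrial ribosome (49 MRPL and 29 MRPS genes). Class and subunit were read from the symbol alone, which need not give the place of the protein. All 155 passed 1 CPM in UMUC3 and in SW780, and the weakest of them, MRPL55, still had 4.46 CPM in UMUC3 shSCD1 and 4.56 CPM in UMUC3 shNT.

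The cytosolic ribosome translates the messages of nearly all cellular genes, and its proteins are needed in equal numbers, with the stalk proteins RPLP1 and RPLP2 as the known exception. Most of their messages begin with a terminal oligopyrimidine (TOP) tract, a C followed by an unbroken run of pyrimidines, through which growth signalling and the binding protein LARP1 control their translation and stability. The mitochondrial ribosome is made of proteins encoded in the nucleus and imported, together with RNAs of the mitochondrial genome, and it translates the few membrane subunits of the respiratory chain that this genome encodes. Messages for its proteins are not known as TOP messages.

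The classes differ in their annotated starts, so promoter windows are shown for the members at the outer ends of each class. Windows from RefSeq (GRCh38.p14), reaching from 250 bases before to 50 bases after the annotated start, matched 131 of the 155 members, 62 cytosolic and 69 mitochondrial. For each line and class the members with the lowest and the highest shSCD1 over shNT ratio are printed, among those with a window used here and a single listed start, so RPS20 (lowest cytosolic in UMUC3) and MRPS28 (lowest mitochondrial in SW780) are not among them. Each sequence runs 5′ to 3′ from 40 bases before the start to 20 bases from the start on. Capitals mark a pyrimidine run of at least 5 bases that begins with C exactly at the start, or a match to CCGGAAG (the core bound by ETS factors such as GABPA) or AAGATGGC (the core bound by YY1) on either strand.
RPS12, lowest cytosolic of those used in UMUC3, chr6:132814529-132814588, plus strand: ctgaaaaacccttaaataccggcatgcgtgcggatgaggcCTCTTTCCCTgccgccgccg
RPS28, highest cytosolic in UMUC3, chr19:8321456-8321515, plus strand: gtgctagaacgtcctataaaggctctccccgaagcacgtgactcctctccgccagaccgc
RPS6, lowest cytosolic in SW780, chr9:19380217-19380276, minus strand: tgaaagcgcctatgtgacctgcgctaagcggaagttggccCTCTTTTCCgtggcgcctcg
RPL38, highest cytosolic in SW780, chr17:74203638-74203697, plus strand: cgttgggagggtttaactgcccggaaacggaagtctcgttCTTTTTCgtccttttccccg
MRPL54, lowest mitochondrial in UMUC3, chr19:3762642-3762701, plus strand: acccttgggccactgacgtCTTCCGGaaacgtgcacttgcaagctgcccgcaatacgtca
MRPS18A, highest mitochondrial in UMUC3, chr6:43687772-43687831, minus strand: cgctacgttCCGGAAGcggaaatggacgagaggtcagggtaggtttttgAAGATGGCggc
MRPS7, lowest mitochondrial of those used in SW780, chr17:75261839-75261898, plus strand: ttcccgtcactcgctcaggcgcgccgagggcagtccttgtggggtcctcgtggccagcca
MRPL11, highest mitochondrial in SW780, chr11:66438829-66438888, minus strand: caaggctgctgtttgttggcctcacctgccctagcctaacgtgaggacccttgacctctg

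RPS12, RPS6 and RPL38 began with pyrimidine runs of 10, 9 and 7 bases, and RPS28 had no such run at the listed start. None of the 4 mitochondrial members shown had one. Over all windows, 46 of 62 cytosolic genes (74.2%) had a pyrimidine run exactly at a listed start, against 6 of 69 mitochondrial genes (8.70%) and 1404 of 27305 genes of any kind (5.14%). A run that began within 10 bases of the start was common everywhere, at 91.9% of cytosolic, 34.8% of mitochondrial and 38.4% of all genes. Among the cytosolic genes with a single start, 43 of 52 began with C. In the 40 of these 52 with a run at the start, its median length was 8 bases, and the longest, 19 bases, was in RPL39. The ETS word was held by 35.5% of cytosolic and 43.5% of mitochondrial windows, against 12.2% of all windows. The YY1 word was held by 9.68% of cytosolic and 30.4% of mitochondrial windows, against 3.52% of all. GCATGCGC, part of the site of the respiratory regulator NRF1, was held by 4.84% of cytosolic, 8.70% of mitochondrial and 3.68% of all windows. TATAA was held by 19.4% of cytosolic, 10.1% of mitochondrial and 24.2% of all windows. These are matches of letters on either strand and not measured binding sites. The windows of all genes were not limited to genes expressed in these lines, and the shares among expressed genes were not counted.

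**Figure D1:**
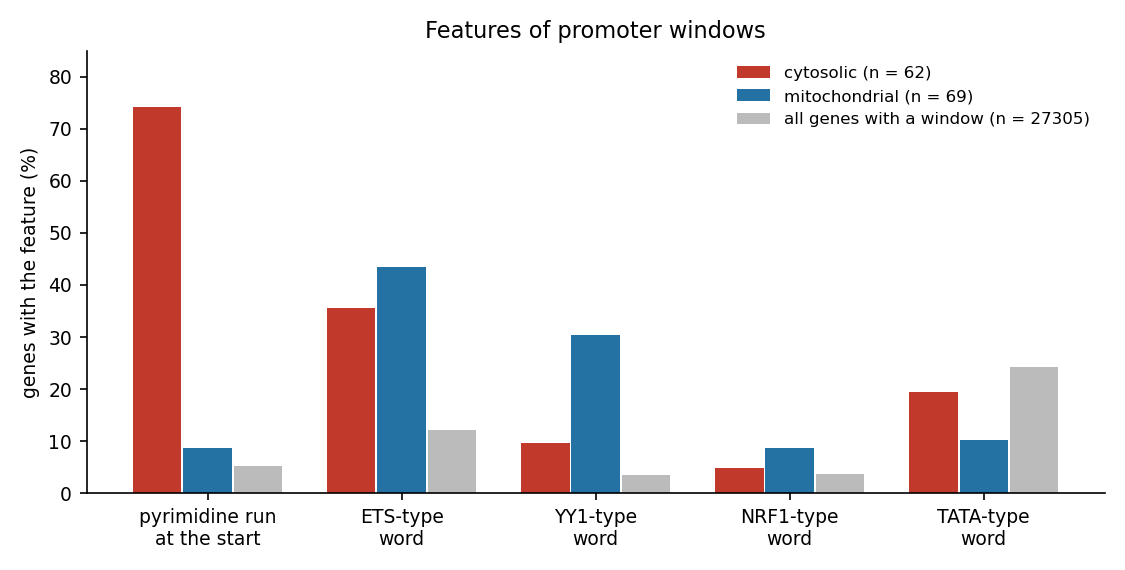
Share of genes, in percent, whose RefSeq promoter window holds each feature, for 62 cytosolic members, 69 mitochondrial members and all 27305 genes with a window. The pyrimidine run at the start stands at 74.2% in the cytosolic class and 8.70% in the mitochondrial class, while the ETS-type word is held by 35.5% and 43.5%.

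The libraries held 32540576 reads in UMUC3 shSCD1, 22818368 in UMUC3 shNT, 25549737 in SW780 shSCD1 and 34087871 in SW780 shNT, counted over the genes of each table. SCD had 59.6 CPM in UMUC3 shSCD1 and 264 CPM in UMUC3 shNT, and 92.1 CPM in SW780 shSCD1 and 592 CPM in SW780 shNT. The file headers do not name the 2 library columns by group. The second was read as shSCD1 from the name of each table and from its ratio of second over first. SCD was lower in that column in both lines. Every direction below would turn round if this reading were wrong. Over 14 urothelial and epithelial markers, the summed level was 261 CPM in UMUC3 shSCD1 and 534 CPM in UMUC3 shNT, with 11 in the table, 5 at 1 CPM or more and 2 at 0 reads. In SW780 all 14 were in the table and summed to 10145 CPM in shSCD1 and 12277 CPM in shNT. VIM, a mesenchymal filament, had 2254 CPM in UMUC3 shSCD1 and 2794 CPM in UMUC3 shNT, against 10.998 CPM in SW780 shSCD1 and 0.616 CPM in SW780 shNT. All mesenchymal and fibroblast markers summed to 2310 CPM in UMUC3 shSCD1 and 2869 CPM in UMUC3 shNT, and to 385 CPM in SW780 shSCD1 and 223 CPM in SW780 shNT. The part of these differences in the results on ribosomal protein genes was not tested. Blood markers summed to at most 0.744 CPM in any library.

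Cytosolic ribosomal protein genes took 6.82% of the reads of UMUC3 shSCD1 and 7.55% of UMUC3 shNT, and 3.10% of SW780 shSCD1 and 3.22% of SW780 shNT. Mitochondrial ribosomal protein genes took 0.425% of the reads of UMUC3 shSCD1 and 0.424% of UMUC3 shNT, and 0.339% of SW780 shSCD1 and 0.363% of SW780 shNT. The cytosolic sum was therefore lower in shSCD1 cells of both lines, by 1.107-fold in UMUC3 (1.105 to 1.109) and by 1.041-fold in SW780 (1.038 to 1.044). The mitochondrial sum in UMUC3 was the same in shSCD1 and shNT within counting error (1.00-fold, 0.993 to 1.01; its log2 ratio was −0.035 with edgeR's TMM factors), and in SW780 it was 1.07-fold lower in shSCD1 (1.06 to 1.08). Intervals here and below are exact 95% Clopper-Pearson intervals. They cover counting error only, and as no molecular identifiers were used, reads are not independent molecules. Cytosolic reads outnumbered mitochondrial ones by 16.1 to 1 in UMUC3 shSCD1 and 17.8 to 1 in UMUC3 shNT, and by 9.12 to 1 in SW780 shSCD1 and 8.87 to 1 in SW780 shNT. In bulk RNA, fewer cells of a kind and less RNA per cell cannot be told apart.

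By single genes, the ratio used was log2((shSCD1 CPM + 1)/(shNT CPM + 1)). In UMUC3 its median was −0.14 over the 77 cytosolic genes and −0.04 over the 78 mitochondrial genes, beside 0.04 over all 14063 genes tested. In SW780 the medians were −0.06 (cytosolic) and −0.09 (mitochondrial), beside −0.01 over all 12880 genes tested. The cytosolic median thus lay 0.09 below the mitochondrial median in UMUC3 and 0.03 above it in SW780, and whether the lines differ in this was not tested. In UMUC3, 55 of 77 cytosolic genes (71.4%) and 42 of 78 mitochondrial genes (53.8%) had a ratio below 0, where 45.7% of all genes did. In SW780, 56 cytosolic (72.7%) and 58 mitochondrial genes (74.4%) were below 0, where 51.5% of all genes were. No member passed a 2-fold difference in UMUC3 or SW780, a size that 4.64% of all genes passed in UMUC3 and 2.54% in SW780. A smaller difference, a log2 ratio of 0.32 or more, or of −0.32 or less (25% more or 20% less), was counted as well. By this rule 19 cytosolic genes (24.7%) and 9 mitochondrial genes (11.5%) were lower in UMUC3 shSCD1, beside 16.8% of all genes. By the same rule 2 cytosolic genes (2.60%) and 3 mitochondrial genes (3.85%) were higher there, beside 23.1% of all genes. In SW780, 0 cytosolic and 5 mitochondrial genes (6.41%) were lower by that rule, beside 10.8% of all genes, and 0 of either class were higher, beside 12.6%. MRPL11 in SW780 fell just short of that limit, with a log2 ratio of 0.3207 against the limit of 0.3219.

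Values were also taken by subunit, where large and small stand for L and S in the symbol alone. The place of each protein was not checked, and MRPS36 counts as small here. In UMUC3 the median ratio was −0.11 in the large and −0.15 in the small cytosolic subunit, and 8 of 46 large-subunit genes (17.4%) and 11 of 31 small-subunit genes (35.5%) were lower by the 0.32 rule, beside 16.8% of all genes. In the mitochondrial class of UMUC3 the MRPL genes had a median of −0.08 and the MRPS genes 0.03. In SW780 the order was the other way in both classes, with −0.07 (large) and −0.04 (small) in the cytosolic ribosome and −0.06 (large) and −0.11 (small) in the mitochondrial one. Of the 29 MRPS genes in SW780, 25 (86.2%) were below 0, and of the 49 MRPL genes 33 (67.3%), beside 51.5% of all genes. By the 0.32 rule 2 of these MRPS genes (6.90%) were lower there, beside 10.8% of all genes. Mitochondrial proteins with a bacterial counterpart had medians of 0.04 in UMUC3 and −0.09 in SW780 (48 genes), and those particular to mitochondria −0.09 in UMUC3 and −0.04 in SW780 (29 genes, leaving out MRPS36). MRPS36, now known as a subunit of the oxoglutarate dehydrogenase complex, had ratios of −0.09 in UMUC3 and −0.14 in SW780.

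**Figure D2:**
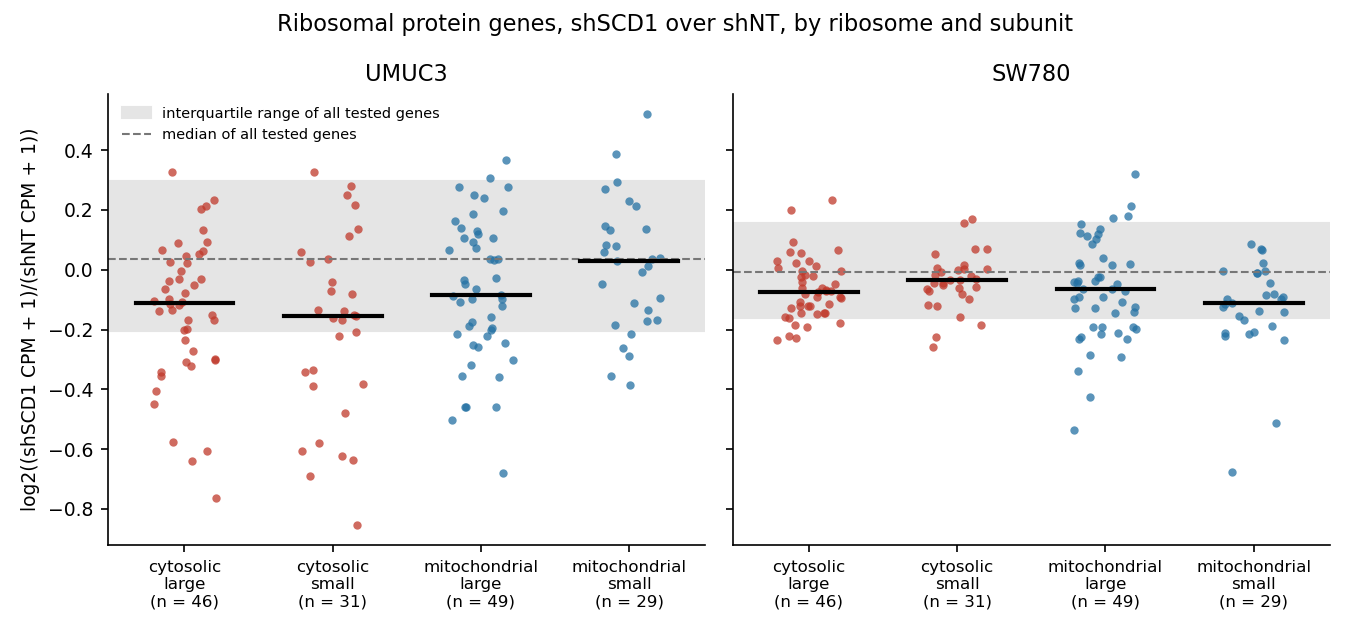
Log2 ratio of shSCD1 over shNT for each ribosomal protein gene, by ribosome and subunit as read from the symbol, in UMUC3 (left) and SW780 (right). Points are genes with 1 library behind each level, black bars are medians, the dashed line is the median and the grey band the interquartile range of all tested genes. The cytosolic genes of UMUC3 reach down to −0.85 and those of SW780 to −0.26.

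In UMUC3 the 4 lowest cytosolic ratios belonged to RPS20, RPL30, RPS12 and RPL39. RPS20, a protein of the small-subunit head, had 424 CPM in shSCD1 and 766 CPM in shNT, 1.81-fold lower (1.77 to 1.85). RPL30, a large-subunit protein, had 410 CPM in shSCD1 and 697 CPM in shNT, 1.70-fold lower (1.66 to 1.74). RPS12, whose window is printed above, had 351 CPM in shSCD1 and 567 CPM in shNT, 1.62-fold lower (1.58 to 1.66). These 3 lay far outside counting error, as their lowest library still held 11421 reads. RPL39, a very short protein near the exit tunnel of the large subunit, had 213 CPM in shSCD1 and 333 CPM in shNT, 1.56-fold lower (1.51 to 1.61). RPS29, a zinc-binding protein of the small subunit, had 56.1 CPM in shSCD1 and 86.9 CPM in shNT, and RPS9, a small-subunit assembly protein, had 404 CPM in shSCD1 and 616 CPM in shNT. RPS27A, which is made as a fusion with ubiquitin, had 429 CPM in UMUC3 shSCD1 and 641 CPM in UMUC3 shNT, a log2 ratio of −0.58.

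At the other end in UMUC3 stood RPS28, RPL23, RPS15 and RPS26. RPS28, a small-subunit protein at the messenger exit, had 159 CPM in shSCD1 and 127 CPM in shNT, 1.26-fold higher (1.202 to 1.32). RPL23, which is also known to bind MDM2, had 1141 CPM in shSCD1 and 908 CPM in shNT, 1.26-fold higher (1.23 to 1.28). RPS15, a protein of the small-subunit head, had 553 CPM in shSCD1 and 455 CPM in shNT, and RPS26, which contacts the messenger, had 624 CPM in shSCD1 and 525 CPM in shNT. The extremes in UMUC3 were therefore lopsided: the lowest cytosolic ratio was −0.85 and the highest 0.33. RPS28 and RPL30 share 21.4% and 21.6% of their exonic bases with exons of other genes, so reads there cannot be assigned to them with certainty.

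In SW780 the cytosolic class was narrower, from −0.26 to 0.23. RPS6, the small-subunit protein phosphorylated by S6 kinases, had 359 CPM in shSCD1 and 430 CPM in shNT, 1.198-fold lower (1.17 to 1.23). RPL29 had 169 CPM in shSCD1 and 199 CPM in shNT, and RPL36A had 108 CPM in shSCD1 and 127 CPM in shNT, both with log2 ratios of −0.23. RPL38, known in mice for its part in translating Hox messages, was the highest, with 162 CPM in shSCD1 and 138 CPM in shNT, 1.18-fold higher (1.13 to 1.23). Next to it came RPLP1 with 436 CPM in shSCD1 and 380 CPM in shNT, RPS14 with 573 CPM in shSCD1 and 510 CPM in shNT, and RPS12 with 271 CPM in shSCD1 and 243 CPM in shNT. All of these differences exceeded counting error, yet none reached the 0.32 limit.

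**Figure D3:**
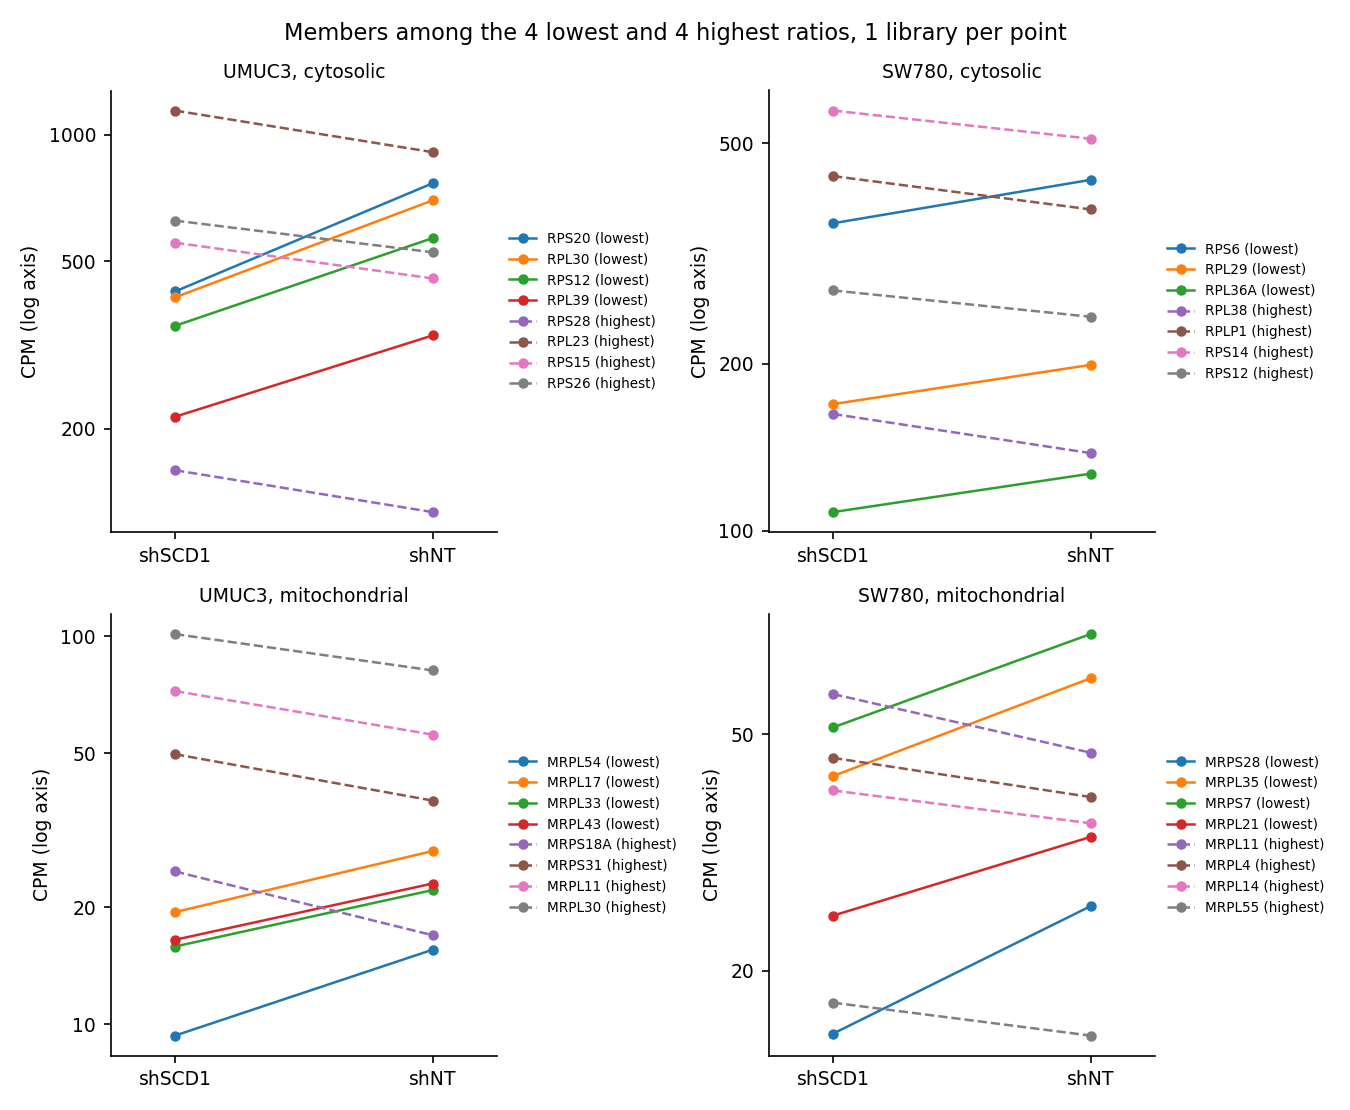
CPM (log axis) in the shSCD1 library (left) and the shNT library (right) of members among the 4 lowest (solid lines) and 4 highest (dashed lines) ratios per class and line. Each point is 1 library. In UMUC3, RPS20 stands at 424 CPM in shSCD1 and 766 CPM in shNT; in SW780, MRPS28 stands at 15.7 CPM in shSCD1 and 25.7 CPM in shNT.

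Members with known special roles had ratios on both sides of 0. In the stalk that recruits translation factors, RPLP0 had log2 ratios of −0.10 in UMUC3 and −0.16 in SW780, and RPLP2 had −0.08 and −0.02. RPLP1, their partner, had 546 CPM in UMUC3 shSCD1 and 831 CPM in UMUC3 shNT, a ratio of −0.60, but 0.20 in SW780. RPL5 and RPL11, which bind the 5S RNA and can inhibit MDM2, were both lower in UMUC3 shSCD1. RPL5 had 1328 CPM in UMUC3 shSCD1 and 1646 CPM in UMUC3 shNT (1.24-fold lower, 1.22 to 1.26), and RPL11 had 706 CPM in UMUC3 shSCD1 and 904 CPM in UMUC3 shNT (1.28-fold lower, 1.26 to 1.30). In SW780 they had ratios of −0.11 (RPL5) and −0.04 (RPL11). RPS19, the gene most often mutated in Diamond-Blackfan anaemia, had a ratio of −0.15 in UMUC3, and 923 CPM in SW780 shSCD1 beside 921 CPM in SW780 shNT. RPS14, encoded in the region lost in the 5q deletion syndrome, had −0.48 in UMUC3 and 0.17 in SW780. RPL10, RPL3 and RPSA, the laminin receptor precursor, were lower in shSCD1 of both lines, with ratios from −0.23 to −0.14 in UMUC3 and from −0.14 to −0.03 in SW780. RPL22 had 0.13 in UMUC3 and −0.22 in SW780, and RPS4X, the X-linked form of its protein, 0.03 in UMUC3 and −0.02 in SW780.

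Among mitochondrial ribosomal protein genes of UMUC3, MRPL54 was the lowest, with 9.34 CPM in shSCD1 and 15.6 CPM in shNT, 1.67-fold lower (1.42 to 1.95) on 304 reads in shSCD1 and 355 reads in shNT. MRPL17, the homologue of bacterial L17 at the exit tunnel, had 19.5 CPM in shSCD1 and 28.0 CPM in shNT, 1.44-fold lower (1.29 to 1.61). MRPL33 had 15.9 CPM in shSCD1 and 22.2 CPM in shNT, and MRPL43 had 16.5 CPM in shSCD1 and 23.1 CPM in shNT, both with log2 ratios of −0.46. The highest was MRPS18A, with 24.8 CPM in shSCD1 and 17.0 CPM in shNT, 1.46-fold higher (1.29 to 1.65). MRPS31 had 49.7 CPM in shSCD1 and 37.7 CPM in shNT, and MRPL11, the homologue of bacterial L11 in the factor-binding stalk base, had 72.3 CPM in shSCD1 and 55.8 CPM in shNT. MRPL30 followed with 101.4 CPM in shSCD1 and 81.7 CPM in shNT. These low levels carried wider counting error than the cytosolic genes, and 27 of 78 intervals in UMUC3 included a fold of 1, against 5 of 77 in the cytosolic class. MRPS18A shares 47.0% of its exonic bases with exons of another gene, MRPL43 36.9% and MRPL33 21.1%, so their reads are uncertain.

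In SW780 the lowest mitochondrial members were MRPS28, MRPL35, MRPS7 and MRPL21. MRPS28 had 15.7 CPM in shSCD1 and 25.7 CPM in shNT, 1.64-fold lower (1.45 to 1.85), and another gene covers 35.8% of its exonic bases. MRPL35 had 42.5 CPM in shSCD1 and 62.0 CPM in shNT, 1.46-fold lower (1.36 to 1.57). MRPS7, a small-subunit head protein, had 51.3 CPM in shSCD1 and 73.6 CPM in shNT, 1.43-fold lower (1.34 to 1.53). MRPL21 had 24.8 CPM in shSCD1 and 33.6 CPM in shNT. These 4 were followed by MRPL53 at a log2 ratio of −0.34. MRPL11 was the highest, with 58.4 CPM in shSCD1 and 46.5 CPM in shNT, 1.254-fold higher (1.17 to 1.35). MRPL4 had 45.6 CPM in shSCD1 and 39.2 CPM in shNT, MRPL14 had 40.2 CPM in shSCD1 and 35.4 CPM in shNT, and MRPL55 had 17.7 CPM in shSCD1 and 15.6 CPM in shNT.

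The 3 human homologues of bacterial S18 had different ratios in UMUC3, at 0.52 for MRPS18A, −0.13 for MRPS18B and 0.14 for MRPS18C, and closer ones in SW780, at −0.08 for MRPS18B and −0.11 for MRPS18C, with MRPS18A at 40.4 CPM in shSCD1 and 40.5 CPM in shNT. MRPL3, MRPS22, MRPS16 and MRPL44 are among the genes mutated in mitochondrial translation disorders. MRPL3 had 330 CPM in UMUC3 shSCD1 and 295 CPM in UMUC3 shNT, and 119 CPM in SW780 shSCD1 and 130 CPM in SW780 shNT. MRPS22 had ratios of −0.01 in UMUC3 and −0.14 in SW780, MRPS16 −0.11 and −0.19, and MRPL44 −0.09 and 0.02. MRPL12, a stalk protein also found with the mitochondrial RNA polymerase, had −0.16 in UMUC3 and −0.07 in SW780. MRPS12, the homologue of bacterial S12, a protein known for streptomycin resistance, had −0.19 in UMUC3 and 0.07 in SW780. MRPS30 had 0.01 in UMUC3 and −0.16 in SW780.

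The outer members of UMUC3 were next looked up in SW780. By the 0.32 rule 28 members were lower in UMUC3 shSCD1 and 5 in SW780 shSCD1, and they shared 1 member, MRPS28 (3.57% of the UMUC3 list and 20% of the SW780 list). Over the 11090 genes tested in both lines, the lists of lower genes shared 200, which is 10.8% of the UMUC3 list and 20.9% of the SW780 list. MRPS28 had 35.0 CPM in UMUC3 shSCD1 and 46.1 CPM in UMUC3 shNT, besides the SW780 values above. Across genes, the UMUC3 and SW780 ratios had a Spearman rank correlation of −0.17 over the 77 cytosolic and −0.11 over the 78 mitochondrial genes, beside 0.03 over the 11090 genes. Genes are not independent replicates, and those of a line share its 2 libraries. In the cytosolic class 40 genes were below 0 in both lines, 6 above 0 in both, and 31 had opposite signs; in the mitochondrial class these were 28, 6 and 44. Signs were thus opposite for 40.3% of cytosolic and 56.4% of mitochondrial genes, beside 48.5% of all genes, and both below 0 for 51.9% and 35.9%, beside 25.6% of all genes. The share below 0 in both depends on the share in each line. That was 71.4% in UMUC3 and 72.7% in SW780 for cytosolic genes, and 53.8% and 74.4% for mitochondrial genes. The share in both therefore does not by itself show gene-by-gene agreement of the lines. RPL30 and RPS9 stood in the lowest quartile of their class in UMUC3 and in SW780, and RPS28, RPL38, RPL8, RPL28 and RPS15 in the highest quartile of both. MRPS28, MRPS5, MRPL53, MRPL48 and MRPS34 were in the lowest mitochondrial quartile of both, and MRPL11, MRPL4 and MRPS11 in the highest. MRPL11 had ratios of 0.37 in UMUC3 and 0.32 in SW780, and MRPL4, the next, 0.24 and 0.21. In each class the lowest quartile held 19 genes and the highest 20. Unrelated orders would also share some members, and the overlaps were not set beside such a share.

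Other members stood at opposite ends in the 2 lines. RPS12, RPS20, RPLP1 and RPS14 were among the 8 cytosolic genes in the lowest quartile in UMUC3 and the highest in SW780. RPS20, for instance, had 437 CPM in SW780 shSCD1 and 416 CPM in SW780 shNT, beside the 1.81-fold lower value in UMUC3. RPS6, RPL22, RPL12 and RPL32 were among the 5 with the reverse placement. RPS6 had 2795 CPM in UMUC3 shSCD1 and 2541 CPM in UMUC3 shNT, and RPL12 had 914 CPM in UMUC3 shSCD1 and 778 CPM in UMUC3 shNT. In the mitochondrial class MRPL14, MRPL17, MRPL39 and MRPS23 were among 5 genes low in UMUC3 and high in SW780, and MRPL19, MRPL30, MRPS27 and MRPL32 were among 7 with the reverse. None of these contrasts between the lines was tested. With quartiles of 19 and 20 genes, unrelated orders would also place some members at opposite ends, and these counts were not set beside such a share.

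**Figure D4:**
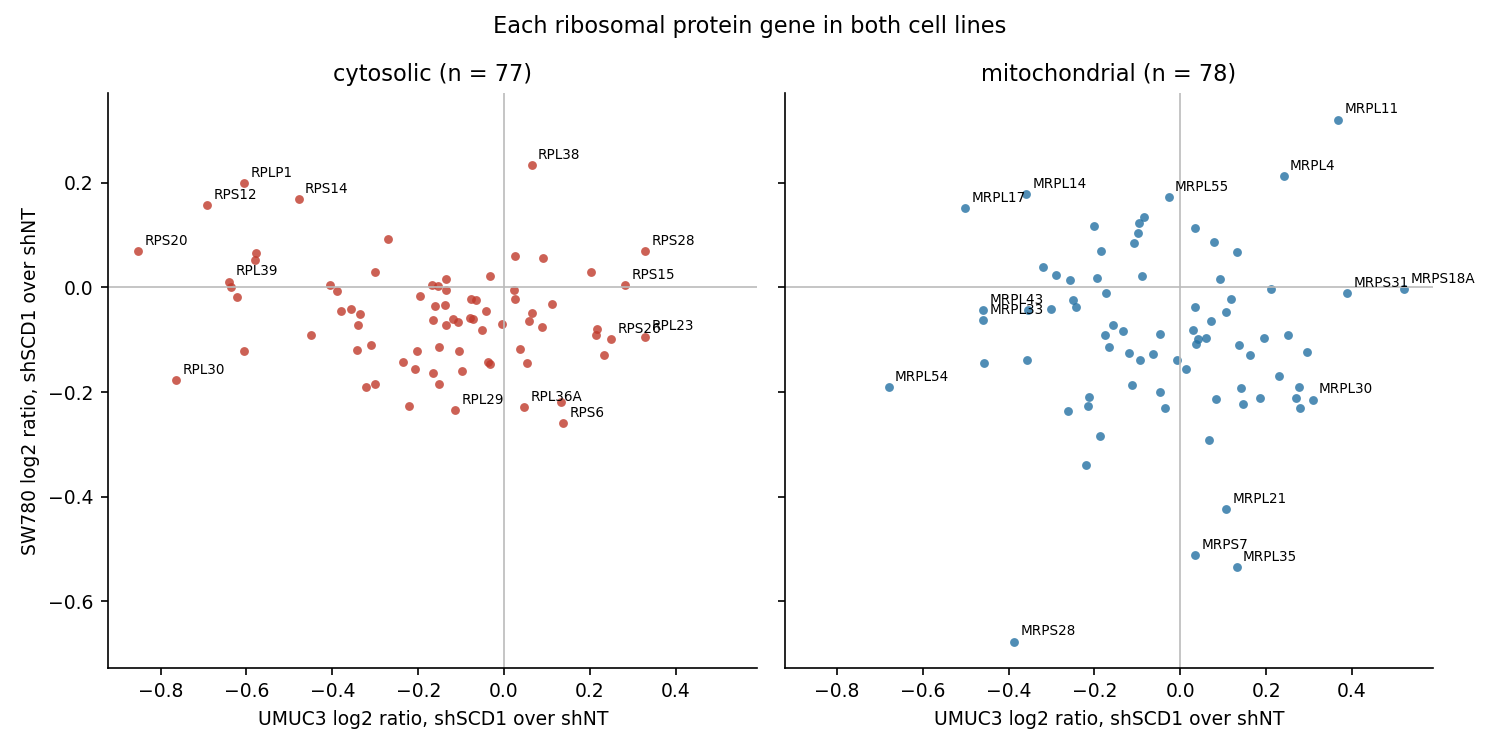
Log2 ratio of shSCD1 over shNT in UMUC3 (x axis) against SW780 (y axis) for each cytosolic (left) and mitochondrial (right) ribosomal protein gene; names mark members among the 4 lowest and 4 highest of each line. RPS20, RPS12 and RPLP1 lie low in UMUC3 and above 0 in SW780, and MRPS28 lies low in both.

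Over both lines together, with cell line as a block and 1 residual degree of freedom, edgeR's quasi-likelihood test called 0 of 155 members and 0% of the 13087 genes tested at a Benjamini-Hochberg adjusted p under 0.05. The lowest adjusted p of a member was 0.981. At an unadjusted p under 0.05 edgeR picked 425 genes of any kind, with 0 cytosolic members and 1 mitochondrial member among them. DESeq2 in the same design called 27 genes (0.206% of those tested), none of them a member, and had 331 genes of any kind at an unadjusted p under 0.05, with 1 cytosolic and 0 mitochondrial members among them.

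Ratios were also set beside features of the genes, as descriptions across the 77 and 78 genes of a class. Spearman correlations of the ratio with transcript length were 0.08 (cytosolic) and 0.21 (mitochondrial) in UMUC3 and −0.24 and 0.06 in SW780. With GC content they were 0.07 (cytosolic) and −0.22 (mitochondrial) in UMUC3 and 0.22 and 0.28 in SW780, where all tested genes had 0.16. The 28 cytosolic genes that carry small nucleolar RNAs in their introns had a median ratio of −0.15 in UMUC3 and −0.07 in SW780, and the 49 without them −0.11 and −0.05. Cytosolic genes with a pyrimidine run at the start had medians of −0.14 in UMUC3 and −0.06 in SW780 (46 genes), and those without it −0.05 and −0.08 (16 genes). Mitochondrial genes with the ETS word had medians of −0.14 in UMUC3 and −0.08 in SW780 (30 genes), and those without it 0.01 and −0.08 (39 genes). Cytosolic genes with it had −0.14 in UMUC3 and −0.06 in SW780 (22 genes), and those without it −0.12 and −0.06 (40 genes). With the YY1 word, mitochondrial genes had −0.05 in UMUC3 and −0.09 in SW780 (21 genes), and without it −0.06 and −0.08 (48 genes). Cytosolic genes with that word had −0.23 in UMUC3 and −0.02 in SW780 (6 genes), and the others −0.12 and −0.07 (56 genes).

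Levels varied widely among members of the same particle. On the scale of CPM per kilobase of a gene's median-length coding transcript, averaged over the 2 libraries of a line, cytosolic genes had a median level of 973 in UMUC3 and 521 in SW780, and mitochondrial genes 37.5 and 39.5. In UMUC3 the highest cytosolic levels on this scale were those of RPL7A (3168), RPS6 (2991) and RPL4 (2621), and the lowest those of RPS29 (106), RPS28 (108) and RPL36 (288). In SW780 RPS19 (1753) and RPL41 (1265) were among the highest, and the lowest RPS28 (35.7), RPS29 (145) and RPL36A (170). Among mitochondrial genes MRPL51 was the highest on this scale in both, at 240 in UMUC3 and 194 in SW780, and the lowest were MRPL57 (6.33) in UMUC3 and MRPS31 (8.71) in SW780. RPS28 and MRPL57 were scaled by long annotated transcripts, of 1326 and 2246 bases, beside their short coding parts, which lowers their value per kilobase. The order of CPM levels was shared between shSCD1 and shNT of a line, with Spearman correlations across genes from 0.95 to 0.99 in both classes and lines.

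Between the lines the order of levels was less alike, and the cytosolic class stood higher in UMUC3. The tables were scaled separately, so CPM was recomputed over the genes they share. The tables also differ in content, with 30148 genes for UMUC3 and 17752 for SW780. Genes of the mitochondrial genome took 0.507% of reads in UMUC3 shSCD1 and 0.577% in UMUC3 shNT. The SW780 table lists no gene of the mitochondrial genome, so their share of reads there is not known. Whether reads of the lines were counted and filtered alike was not tested, nor was the part of this in the folds below. Cytosolic members summed to 70450 CPM in UMUC3 shSCD1 and 31460 CPM in SW780 shSCD1, 2.24-fold more, and to 77868 CPM in UMUC3 shNT and 32806 CPM in SW780 shNT, 2.37-fold more. Mitochondrial members summed to 4384 CPM in UMUC3 shSCD1 and 3449 CPM in SW780 shSCD1, 1.27-fold more, and to 4372 CPM in UMUC3 shNT and 3698 CPM in SW780 shNT, 1.18-fold more. At least 2-fold higher levels in UMUC3 were seen for 33 of 77 cytosolic genes in shSCD1 (42.9%) and 45 in shNT (58.4%), beside 15.6% and 14.8% of the 13087 genes tested. In the mitochondrial class these were 10 genes in shSCD1 (12.8%) and 7 in shNT (8.97%). At least 2-fold lower levels in UMUC3 were seen for 0 cytosolic and 8 mitochondrial genes in shSCD1 and in shNT, beside 26.5% (shSCD1) and 26.7% (shNT) of all genes. RPS6 had 2885 CPM in UMUC3 shSCD1 and 364 CPM in SW780 shSCD1, 7.92-fold more, and RPL5 had 1697 CPM in UMUC3 shNT and 257 CPM in SW780 shNT, 6.60-fold more. RPS19 and RPS27 were lower in UMUC3, RPS19 with 574 CPM in UMUC3 shSCD1 and 938 CPM in SW780 shSCD1. In the mitochondrial class MRPS31 was 3.98-fold higher in UMUC3 in shSCD1 libraries, while MRPS6 had 16.5 CPM in UMUC3 shSCD1 and 59.3 CPM in SW780 shSCD1.

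**Figure D5:**
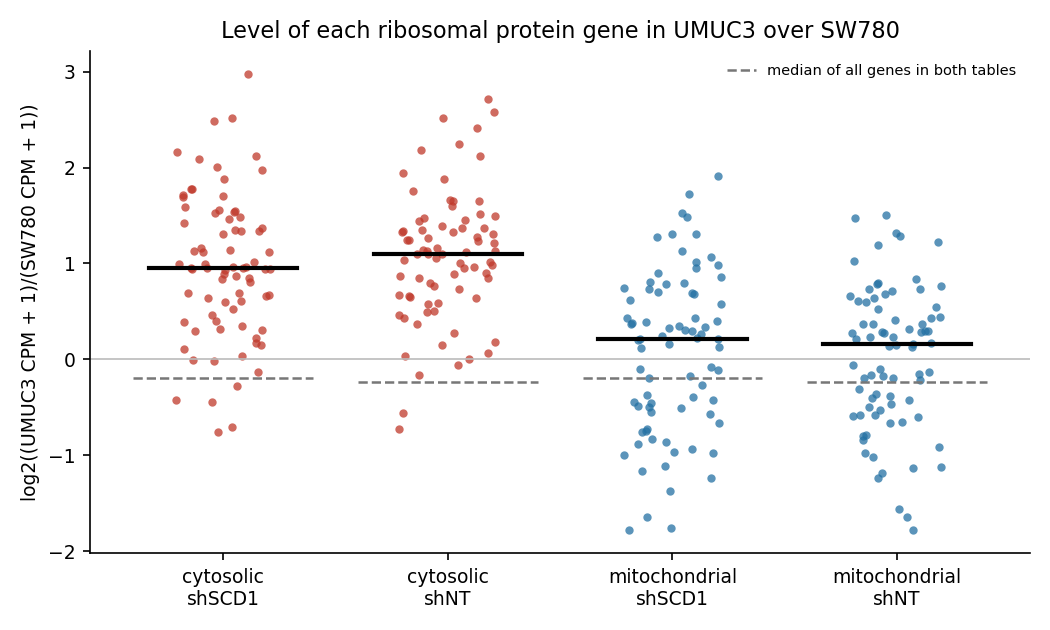
Log2 ratio of the CPM level in UMUC3 over SW780 for each member, by class, in shSCD1 and in shNT libraries; black bars are class medians and dashed lines the median of all genes in both tables. The cytosolic medians stand at 0.96 in shSCD1 and 1.10 in shNT, and the mitochondrial ones at 0.21 and 0.16.

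The UMUC3 table also lists 655 pseudogenes named after cytosolic members and 16 named after mitochondrial ones, while no such entry is in the SW780 table. Their reads came to 3228 CPM in UMUC3 shSCD1 and 3316 CPM in UMUC3 shNT for the cytosolic class, which was 4.73% of the members' reads in shSCD1 and 4.39% in shNT. For RPL21 the pseudogene reads were 68.3% of the member's own reads in UMUC3 shSCD1 and 33.04% in UMUC3 shNT, and for RPL7 they were 26.02% in UMUC3 shSCD1 and 24.8% in UMUC3 shNT. Reads from near-identical copies cannot be assigned with certainty, and the counting rule is not given in the sources used here. Read-through entries share exons with RPS10, RPL17 and RPL36A; adding their reads moved the RPS10 ratio in SW780 to 0.05, against −0.04 without them.

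Other genes of ribosome making and use had mixed ratios. Over all tested genes, 45.7% were below 0 in UMUC3 and 51.5% in SW780, with medians of 0.04 and −0.01. Of 23 cytosolic ribosomal and TOP-message genes outside the symbol rule, 14 (60.9%) were below 0 in UMUC3 and 16 (69.6%) in SW780. Their medians were −0.07 and −0.05. FAU, whose product is a fusion with the ribosomal protein S30, was the lowest in UMUC3 at −0.45, with 117 CPM in shSCD1 and 161 CPM in shNT, but the highest in SW780 at 0.18. EEF1G, an elongation factor subunit, was the lowest in SW780, with 434 CPM in shSCD1 and 751 CPM in shNT. TPT1, a TOP message, was the highest in UMUC3 at 0.27. Of 52 ribosome biogenesis genes, 31 (59.6%) were below 0 in UMUC3 and 38 (73.1%) in SW780, with medians of −0.03 and −0.10. EIF6, which keeps the large subunit from joining too early, was the lowest in UMUC3 at −0.57, and NOLC1, a nucleolar protein, in SW780 at −0.54. TSR2, the chaperone of RPS26, was the highest in UMUC3 at 0.49, and TCOF1, a nucleolar factor of ribosomal RNA synthesis, in SW780 at 0.35. Among 5 tested paralogs left out of the members, RPL22L1 had 45.8 CPM in UMUC3 shSCD1 and 80.3 CPM in UMUC3 shNT (−0.80), and RPL26L1 had 43.8 CPM in SW780 shSCD1 and 31.5 CPM in SW780 shNT (0.46). RPL26L1 was the highest of these in UMUC3 too, at 0.29, and RPL36AL the lowest in SW780, at −0.20.

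Mitochondrial translation factors and assembly genes had a median of 0.06 in UMUC3, with 16 of 37 (43.2%) below 0. This was near the values of all tested genes there, a median of 0.04 with 45.7% below 0. In SW780 the median was −0.15, with 29 of 37 (78.4%) below 0, beside −0.01 and 51.5% over all tested genes. MRM2, a methyltransferase of the mitochondrial large ribosomal RNA, had 17.1 CPM in UMUC3 shSCD1 and 7.10 CPM in UMUC3 shNT (1.16), the only gene of these lists past 2-fold in UMUC3. NOA1, a GTPase of mitochondrial ribosome assembly, was the lowest there at −0.34. YBEY, an endoribonuclease, was the lowest in SW780, with 5.75 CPM in shSCD1 and 9.97 CPM in shNT, and RBFA, an assembly factor of the small subunit, the highest at 0.18. The 5 mitochondrial ribosomal proteins without the symbol had medians of −0.10 in UMUC3 and −0.04 in SW780, from DAP3 at −0.24 to PTCD3 at 0.14 in UMUC3 and from PTCD3 at −0.11 to GADD45GIP1 at 0.17 in SW780. Among 23 regulators of ribosomal protein genes the medians were 0.00 in UMUC3 and −0.03 in SW780. EIF4EBP2, a translation repressor controlled by mTOR, was the highest in UMUC3, with 123 CPM in shSCD1 and 73.6 CPM in shNT, and in SW780, with 120 CPM in shSCD1 and 69.2 CPM in shNT. ESRRA, a nuclear receptor of mitochondrial genes, was the lowest in UMUC3 at −0.80. PPARGC1B, its coactivator, was the lowest in SW780, with 10.0 CPM in shSCD1 and 22.5 CPM in shNT (−1.09). MYC, a known activator of ribosomal protein genes that is named here after its values were seen, had 291 CPM in UMUC3 shSCD1 and 444 CPM in UMUC3 shNT, and 89.3 CPM in SW780 shSCD1 and 105 CPM in SW780 shNT.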

How the data were processed

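Total RNA of the 4 cell groups was made into TruSeq libraries and sequenced on the Illumina NovaSeq platform (per the labels' protocols). The submitters' processing notes name hg38 as the genome build. The aligner, read counter, annotation release and strand use were not given in the sources used here. For each line the authors deposited 1 table. Per the file headers it holds a GFOLD value and a log2 fold change, both second library over first on a log2 scale, and 2 columns headed RPKM. The deposited signal in these columns is a read count brought to an equal sum per library, without a length term. Among values of up to 20 reads, 100% lay within 0.1 reads of whole multiples of a step per column, and over all values at least 99.9% did, so whole reads were recovered. CPM was computed from them.

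Ratios used CPM plus 1, which understates changes of weakly expressed genes, over genes that reached 1 CPM in either library. Size rules on that scale were a log2 ratio of 1 (2-fold) and of 0.32. A gene with 0 reads could have had up to 3 reads, 0.088 to 0.131 CPM. Gene lengths, positions, overlaps and GC content came from GENCODE 29. The counts were tested over both lines with edgeR 4.0.16 (TMM factors) and DESeq2 1.42.0 in R 4.3.3; other values used Python 3.11.15, pandas 2.3.3 and SciPy 1.17.1. The computations were tested on simulated data.

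The members and gene lists were chosen with earlier results of these data known. Genes were named by rule: per line and class the 4 highest and 4 lowest ratios at 5 CPM or more, up to 5 members in the same outer quartile of both lines and up to 4 in opposite quartiles, the 3 highest and lowest levels per kilobase, members with a textbook role, and the ends of each list. RPS10, RPL17, RPL21, RPL7, RPS27, MRPS6, MRPL1, MRPL13, MRPL15, MRPS25, VIM and MYC were named after their values were seen. A few members that the rule names are not reported here. Promoter windows on chromosome 8 are not shown. Alternatives were other scalings, pseudocounts, filters, a length and GC trend and the authors' own fold changes.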

Additional observations from a re-analysis of the deposited data

Results flagged for a closer look

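The difference between the class medians, cytosolic minus mitochondrial, had opposite signs in the 2 lines, −0.094 in UMUC3 and 0.032 in SW780 on the log2 scale, with 1 library per group behind each level; the difference between the lines was not tested.

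Of the 155 members, 75 (48.4%) had ratios of opposite sign in UMUC3 and SW780, beside 48.5% of the 11090 genes tested in both lines, so the share is that of genes at large. In 11 of them both ratios were at least 0.15 in size, and none of these differences was tested. The share of all genes that meets this added rule was not counted, so the 11 are listed as a description only. RPS12 had −0.69 in UMUC3 and 0.16 in SW780, RPLP1 −0.60 and 0.20, and RPS14 −0.48 and 0.17. MRPL17 had −0.50 in UMUC3 and 0.15 in SW780, and MRPL14 −0.36 and 0.18. The other 6 were higher in UMUC3 shSCD1 and lower in SW780 shSCD1. They were MRPL30 with 0.31 in UMUC3 and −0.21 in SW780, MRPL19 with 0.28 and −0.23, MRPL1 with 0.28 and −0.19, MRPS27 with 0.27 and −0.21, MRPS25 with 0.23 and −0.17, and MRPL32 with 0.19 and −0.21.

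Pseudogenes named after cytosolic members, which are not members, summed over 655 entries to 3228 CPM in UMUC3 shSCD1 and 3316 CPM in UMUC3 shNT.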

How the results depend on the processing

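With 1 library per group, no replicate could be left out and no interval covers the spread between cultures. Replicate numbers could not pair libraries within a line, and only the joint fit of the lines, blocked by cell line, pairs shSCD1 with shNT. The medians of both classes stayed below 0, or at 0, in both lines under all 15 alternatives in UMUC3 and 14 in SW780, where no pseudogene entries could be added. Over these the cytosolic median ranged from −0.22 to −0.11 in UMUC3 and from −0.06 to −0.01 in SW780, and the mitochondrial median from −0.12 to 0 in UMUC3 and from −0.10 to 0 in SW780. The difference of class medians ranged from −0.18 to −0.09 in UMUC3 and from −0.01 to 0.05 in SW780.

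In UMUC3 the cytosolic median was −0.17 with TMM factors, −0.18 with DESeq2 size factors, −0.17 when centred on all genes, −0.22 by the log2 fold change and −0.18 by GFOLD of the authors' deposited table. The summed cytosolic log2 ratio there was −0.18, −0.19 and −0.18 under the same 3 scalings, −0.16 with totals that leave out ribosomal protein genes, −0.14 without overlapping members and −0.14 with pseudogene reads added. The summed mitochondrial log2 ratio was −0.035, −0.039 and −0.036 under the 3 scalings and 0.014 without overlapping members, so its direction depends on the scaling. The mitochondrial median was −0.12 by the authors' log2 fold change. In SW780 the cytosolic median was −0.012 and the mitochondrial median 0 by GFOLD, which shrinks small changes to 0 by construction. The summed cytosolic ratio in SW780 was −0.0501, −0.0489 and −0.0495 under the 3 scalings and −0.0529 without overlapping members.

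Of the counts at a log2 ratio of 0.32, the 2 cytosolic genes higher in UMUC3 became 0 under the 3 scalings, with totals that leave out ribosomal protein genes and by both columns of the authors' deposited table, and 1 without overlapping members. Mitochondrial genes lower in UMUC3 became 16, and those higher there 1, by the authors' log2 fold change, and the count higher 0 by GFOLD. In SW780 the mitochondrial genes lower became 3 without overlapping members and by GFOLD. The count higher became 1 under the 3 scalings, with 0.5 CPM or no pseudocount, with the trend removed and by the authors' log2 fold change. Over both lines, DESeq2 called 27 genes where edgeR called 0. Of the values of single members under the alternatives, 20 no longer passed 0.32, 31 newly passed it, and none changed direction after passing it. The number of mitochondrial promoter windows with a pyrimidine run was 24 within 10 bases of the start and 6 exactly at it. The causes were not tested. Depth limits the weakest mitochondrial members: MRPL55 in UMUC3 rested on 145 reads in shSCD1 and 104 reads in shNT.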

Other observations

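In UMUC3, 5 of the 7 members on chromosome 8 were low together, a pattern picked after the values were seen. RPS20, RPL30, RPL7, MRPL15 and MRPS28 had ratios between −0.85 and −0.36, and their median was −0.41. The stretch from MRPL15 to RPL30 was drawn around these low members, so which members lie inside it was set by their values. The other 132 tested genes in that stretch had a median of 0.08, with 56 below 0. In SW780 the same 5 members had a median of −0.14, with 3 below 0, and the other 103 tested genes between them −0.005. RPL8 and MRPL13, which lie outside that stretch, had 0.09 and 0.11 in UMUC3.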
